A study of Homo sapiens with 30 samples.

Results

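The genes RYR2, TRDN, CASQ2, JPH2, ASPH, PLN and ATP2A2 of cardiac calcium handling are described here, 7 genes chosen by name. All 7 have a row in the whole-cell gene table, which lists 39126 genes, and all 7 were found by the same Ensembl identifier in the nuclear RNA table, which lists 55548. Of them, 5 genes hold 167 of the 312253 skipped-exon events that the authors listed in 4 tables. CASQ2 and PLN have no event in any of these tables.

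The series sequenced RNA of Hues6, a human embryonic stem cell line, as wild type (WT) and with QKI, an RNA-binding regulator of splicing, knocked out (KO). Polyadenylated RNA was taken at D0 (pluripotent), D4 (labelled cardiac progenitors) and D8 (labelled cardiomyocytes) of directed differentiation, with 3 libraries per genotype and day, and nuclear RNA at D8 with 3 libraries per genotype. Differentiation was started with the Wnt pathway activator CHIR and with BMP4 and continued with C59, a Wnt inhibitor: WT cells received 1.5 uM CHIR, KO cells received 1.25 uM, and both received 1.5 ng/mL BMP4. After D0 genotype and CHIR dose therefore cannot be told apart. The fourth skipped-exon table comes from 293xT cells, labelled as treated with control siRNA or QKI siRNA (3 libraries each, 10 uM per the labels). How the knockout was made, the number of clones and whether replicates were separate cultures are not stated in the labels, so the p-values measure the spread between these libraries, which may be technical.

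In heart muscle a small entry of calcium opens the ryanodine receptor RYR2 in the membrane of the sarcoplasmic reticulum, and the calcium released from this store drives contraction. Triadin (TRDN) and junctin, a product of the ASPH locus, sit in the same membrane and tie the receptor to calsequestrin (CASQ2), the calcium-binding protein inside the store. Junctophilin (JPH2) holds the store close to the cell surface membrane. The pump encoded by ATP2A2 (SERCA2) returns calcium to the store, and phospholamban (PLN) restrains it.

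Exons called as different between the arms of the authors' D8 table are shown first where both flanking introns matched a transcript. Differences of exon use described below lie on them. The called ASPH exon of 42 bases and the called RYR2 exons of 65 and 24 bases had no such match and are not shown. Sequences are from GENCODE 29 transcripts (GRCh38) and were matched to the hg19 events by the length of the exon and of both flanking introns. Each line gives the exon in capitals between the last 15 bases of the exon before it and the first 15 bases of the exon after it, 5′ to 3′ on the strand of the gene. The second line is the same RYR2 transcript with exon 75 left out. For ATP2A2 the capitals are the 17 coding bases at the start of a 61-base exon, whose remaining bases are untranslated in transcript ATP2A2-212 and are not shown.
RYR2 exon 75 (36 bases): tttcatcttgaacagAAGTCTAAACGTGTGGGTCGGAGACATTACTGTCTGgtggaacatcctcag
RYR2 without exon 75: tttcatcttgaacaggtggaacatcctcag
TRDN exon 9 (60 bases): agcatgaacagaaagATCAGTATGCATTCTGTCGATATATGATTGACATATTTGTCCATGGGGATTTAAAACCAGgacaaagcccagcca
TRDN exon 14 (30 bases): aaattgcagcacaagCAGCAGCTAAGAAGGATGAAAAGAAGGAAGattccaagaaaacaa
TRDN exon 31 (18 bases): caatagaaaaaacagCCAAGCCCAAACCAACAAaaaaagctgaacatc
TRDN exon 36 (36 bases): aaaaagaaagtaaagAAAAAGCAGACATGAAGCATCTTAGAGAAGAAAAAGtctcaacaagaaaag
ATP2A2 61-base exon, coding start: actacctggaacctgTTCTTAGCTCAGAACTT

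Total counts per library were 40001076 to 89948185 in the whole-cell table and 6549676 to 15030590 in the nuclear table. QKI itself stood at 293 ± 7.4 CPM (the gene's count relative to the library's scaled total; mean ± SD, n = 3) in WT and 39.4 ± 3.3 in KO at D0, and at 146 ± 8.9 and 78.2 ± 10 at D4. At D8 it stood at 324 ± 42 in WT and 335 ± 5.3 in KO, with overlapping groups, and in nuclear RNA at 160 ± 25 and 505 ± 31. Because QKI RNA was not lower under the KO label at D8, directions at that day are given for "the libraries labelled KO". How the knockout was made is not stated, so the RNA level of QKI does not test this label. Summed levels of 12 cardiomyocyte markers were 12.1 to 25.3 CPM at D0 and 303 to 525 CPM at D4, and at D8 ran from 11205 to 19282 CPM in the libraries labelled WT against 30247 to 35515 CPM in those labelled KO, so the label of D8 as cardiomyocytes has its defining markers. Levels are CPM scaled by the trimmed mean of M-values (TMM), and a gene was called changed where the edgeR quasi-likelihood test gave a Benjamini-Hochberg adjusted p below 0.05 over the 21761 genes tested in the whole-cell table or the 30481 in the nuclear one.

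The channel RYR2 (ENSG00000198626.11) was low until D4 and rose at D8 in both genotypes. The 3 WT libraries read 8.98, 7.8 and 7.85 CPM at D0, 12.5, 9.67 and 8.06 at D4, and 132, 112 and 92.4 at D8. The 3 KO libraries read 9.35, 8.98 and 9.77 at D0, 7.91, 5.81 and 5.45 at D4, and 204, 234 and 234 at D8. The D8 libraries lay far above all earlier ones, and D0 and D4 overlapped in WT. From D4 to D8 the log2 fold change of RYR2 was 3.47 ± 0.15 (SE) in WT and 5.12 ± 0.16 in KO (edgeR adjusted p 1.6e-14 and 6.5e-17). Between D0 and D4 it fell in KO, by 0.54 ± 0.16 on the log2 scale (edgeR adjusted p 0.003), and in WT its change of 0.30 ± 0.15 was not called (edgeR adjusted p 0.07), though it was without D4 WT replicate 3 (edgeR adjusted p 0.013).

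TRDN (ENSG00000186439.8), the anchor of calsequestrin at the channel, had a different course: it was present at D0, dropped at D4 and returned at D8. WT libraries read 11.8, 12.7 and 11.6 CPM at D0, 1.5, 1.89 and 1.37 at D4, and 60.8, 52.1 and 37.3 at D8. KO libraries read 48.8, 44.5 and 42.6 at D0, 4.92, 3.85 and 3.86 at D4, and 68.5, 81.8 and 73.1 at D8. All KO libraries lay above all WT libraries of the same day. From D0 to D4 TRDN fell by 2.91 ± 0.18 on the log2 scale in WT and fell by 3.42 ± 0.15 in KO (edgeR adjusted p 1.8e-12 and 6.2e-15). The rise from D4 to D8 was 4.97 ± 0.17 in WT and 4.14 ± 0.15 in KO (edgeR adjusted p 4.9e-16 and 8.4e-16).

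CASQ2 (ENSG00000118729.10), the calcium buffer of the store, had no count in any of the 6 libraries at D0. At D4 it had 4, 0 and 1 counts in WT and 0, 0 and 3 in KO. At D8 it reached 2.3, 2.8 and 3.18 CPM (184, 221 and 311 counts) in the libraries labelled WT but 0.495, 0.964 and 1.05 CPM (32, 67 and 62 counts) in those labelled KO. The 2 D8 groups did not overlap. The rise from D4 to D8 was called in WT at a log2 fold change of 6.22 ± 0.51, which rests on 5 counts at D4 (edgeR adjusted p 7.4e-09), and in KO the ratio of 161 to 3 counts was 38.1-fold with a 95% counting interval of 12.8 to 187.

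JPH2 (ENSG00000149596.6), the tether between the 2 membranes, rose at each step. It read 1.52, 1.61 and 1.32 CPM in WT and 1.53, 1.25 and 1.32 in KO at D0, and 13.6, 12.6 and 17 in WT and 15.7, 13.5 and 14.1 in KO at D4. WT and KO overlapped on both of these days. At D8 it read 145, 122 and 94.3 CPM in the libraries labelled WT and 242, 278 and 297 in those labelled KO, with no overlap. Its log2 fold change between D0 and D4 was 3.28 ± 0.17 in WT and 3.4 ± 0.17 in KO (edgeR adjusted p 1.8e-13 and 8.3e-14), and from D4 to D8 it was 3.07 ± 0.13 and 4.23 ± 0.14 (edgeR adjusted p 1.9e-14 and 1.2e-16).

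ASPH (ENSG00000198363.11), whose locus encodes junctin and also the aspartate beta-hydroxylase, was expressed from the start. WT libraries read 140, 142 and 139 CPM at D0, 91.2, 91.5 and 87 at D4, and 227, 189 and 157 at D8. KO libraries read 115, 108 and 107 at D0, 110, 105 and 109 at D4, and 269, 273 and 276 at D8. ASPH fell from D0 to D4 in WT, by 0.65 ± 0.08 on the log2 scale (edgeR adjusted p 4.2e-07), and KO at both days overlapped. From D4 to D8 it rose by 1.09 ± 0.08 in WT and 1.33 ± 0.08 in KO (edgeR adjusted p 2.7e-10 and 6.5e-12).

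Of the uptake pair, the pump gene ATP2A2 (ENSG00000174437.12) was present throughout and its inhibitor PLN (ENSG00000198523.5) appeared with D8. ATP2A2 read 363, 351 and 324 CPM in WT and 433, 393 and 423 in KO at D0, and 396, 377 and 357 against 388, 413 and 391 at D4. At D8 it read 782, 770 and 576 in the libraries labelled WT and 1130, 1256 and 1157 in those labelled KO. PLN had no count in WT and 0, 3 and 1 counts in KO at D0, then 5, 3 and 2 counts in WT and 12, 1 and 5 in KO at D4. At D8 PLN reached 60.7, 59.1 and 44.8 CPM in the libraries labelled WT and 240, 277 and 310 in those labelled KO, more than any earlier library by far. The D4 to D8 log2 fold change of ATP2A2 was 0.91 ± 0.09 in WT and 1.57 ± 0.09 in KO (edgeR adjusted p 9.8e-09 and 1.3e-12). That of PLN was 9.57 ± 0.26 in WT and 11.18 ± 0.23 in KO, against 10 and 18 counts in all at D4 (edgeR adjusted p 1.7e-16 and 3.1e-18). From D0 to D4 PLN was called higher in WT (edgeR adjusted p 0.02), at least 3.94-fold against a floor of 3 counts over the D0 group, and in KO it was called at an edgeR adjusted p of 0.048 with overlapping libraries. The KO call was lost without D0 KO replicate 1 or 3 or D4 KO replicate 1 or 3 (edgeR adjusted p 0.065 to 0.33).

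**Figure D1:**
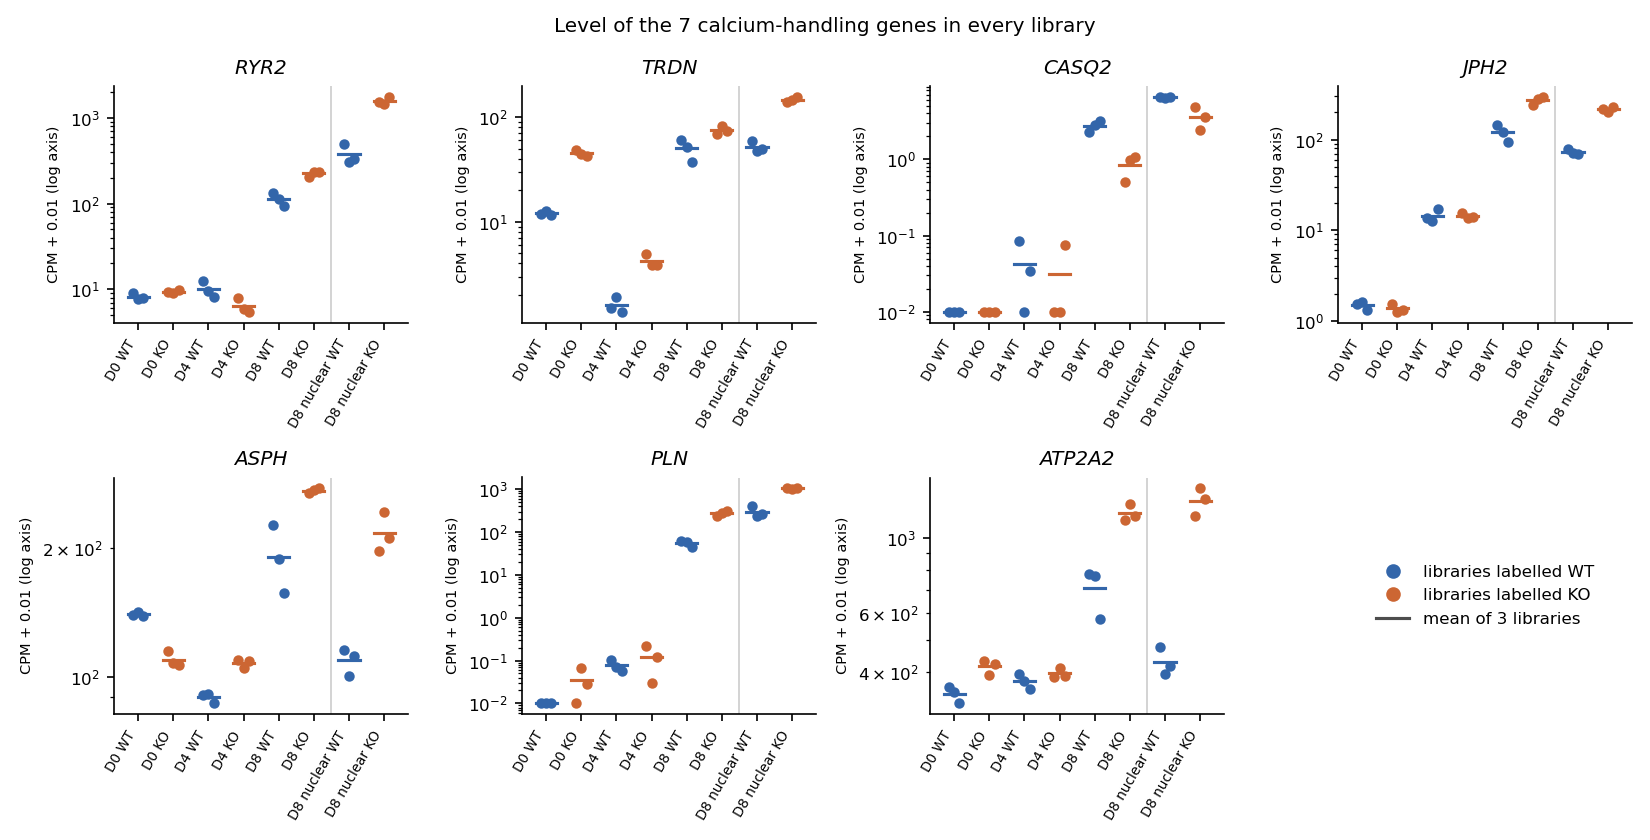
Each panel plots 1 gene, with CPM plus 0.01 on a log axis, a point per library and a line at the mean of 3 libraries for each group. In whole-cell RNA the mean of each gene is highest at D8 in both genotypes, the libraries labelled KO lie above those labelled WT at D8 for every gene but CASQ2, and TRDN is separated by genotype on all days.

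Counted together, 7 of 7 genes rose from D4 to D8 in WT, where 35.0% of all genes tested rose, and 7 of 7 in KO, where 36.1% rose. Their median log2 fold changes were 3.47 in WT and 4.23 in KO (4.23 also with CASQ2 at its counted ratio), against 0.01 and -0.056 over all genes tested. From D0 to D4, 4 of 7 were called in WT (81.0% of all genes) and 4 of 7 in KO (82.6%), in both cases with JPH2 and PLN higher, and with TRDN and ASPH lower in WT but TRDN and RYR2 lower in KO. Both counts are a smaller share than the background.

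At D0, before any differentiation agent, KO differed from WT at 3 of 7 genes, where 42.3% of all genes tested were called, a share close to that of the 7. TRDN was 3.78-fold higher in KO, at 45.3 ± 3.2 against 12 ± 0.58 CPM (SD, n = 3; log2 fold change 1.92 ± 0.13, edgeR adjusted p 7.7e-10). ATP2A2 was 1.2-fold higher (0.27 ± 0.09 on the log2 scale, edgeR adjusted p 0.019), a call lost without D0 WT replicate 3 or D0 KO replicates 1 or 3 (adjusted p 0.079, 0.064 and 0.053). ASPH fell by 0.35 ± 0.08 on the log2 scale (edgeR adjusted p 0.0017). RYR2 at 0.19 ± 0.15 and JPH2 at -0.11 ± 0.23 were not called (edgeR adjusted p 0.34 and 0.73), PLN had 4 counts against 0, and CASQ2 had none on either side. Other markers moved with genotype at D0: smooth muscle and fibroblast markers summed to 261 to 265 CPM in WT and 477 to 512 in KO (5 of 10 higher, none lower), and endoderm markers to 0.793 to 1.5 and 5.71 to 6.37 (3 of 8 higher, none lower). Pluripotency markers summed to 8666 to 8882 in WT and 10444 to 11048 in KO (3 of 9 higher, 1 lower). Cardiomyocyte markers summed to 12.1 to 14.6 in WT and 23.7 to 25.3 in KO (2 of 12 higher, none lower). Endothelial markers summed to 224 to 245 and 301 to 336 (3 of 7 higher, 2 lower), and surface ectoderm and amnion markers to 49.8 to 56.5 and 31.9 to 34 (2 of 7 lower, none higher). Their part in the D0 differences was not tested.

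At D4, 3 of 7 genes were called, where 28.4% of all genes were. TRDN was again higher in KO, at 4.21 ± 0.61 against 1.59 ± 0.27 CPM (1.41 ± 0.19 on the log2 scale, edgeR adjusted p 8.6e-06). RYR2 was lower, at 6.39 ± 1.3 against 10.1 ± 2.3 CPM (-0.66 ± 0.16, edgeR adjusted p 0.0028), and its libraries did not overlap. ASPH was higher by 0.26 ± 0.08 (edgeR adjusted p 0.021), a call lost without D4 WT replicate 3 or D4 KO replicates 1 or 3 (adjusted p 0.071, 0.067 and 0.063). JPH2, ATP2A2 and PLN were not called (0.01 ± 0.13, 0.08 ± 0.09 and 0.73 ± 0.79 on the log2 scale), and the CASQ2 ratio of 3 to 5 counts was 0.59 with a counting interval of 0.0916 to 3.03. Endothelial markers summed to 194 to 230 CPM in WT and 398 to 445 in KO at D4 (6 of 7 higher), endoderm markers to 96.1 to 107 and 250 to 270 (7 of 8 higher), and the cardiomyocyte markers to 303 to 356 and 412 to 525 (6 of 12 higher), with none lower in these 3 lists. Pluripotency markers summed to 2600 to 2881 CPM in WT and 2202 to 2224 in KO (1 of 9 higher, 5 lower). Surface ectoderm and amnion markers summed to 42.3 to 81.5 and 32.2 to 34 (1 of 7 higher, 3 lower). Smooth muscle and fibroblast markers summed to 1430 to 1600 and 1192 to 1424 (3 of 10 higher, 3 lower). The part of all these markers in the D4 differences was not tested.

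At D8 all 7 genes were called, against 55.6% of all genes tested: 6 were higher in the libraries labelled KO (29.4% of all genes were called higher) and CASQ2 was lower. PLN differed most, at 276 ± 35 against 54.9 ± 8.8 CPM (2.33 ± 0.12 on the log2 scale, edgeR adjusted p 1.6e-11). JPH2 was higher by 1.18 ± 0.12, RYR2 by 1.00 ± 0.13 and ATP2A2 by 0.74 ± 0.09 (edgeR adjusted p 4.2e-08, 1.2e-06 and 5.3e-07). TRDN was higher by 0.57 ± 0.12 and ASPH by 0.51 ± 0.08 (edgeR adjusted p 0.00049 and 2.3e-05). CASQ2 was lower, at 0.835 ± 0.3 against 2.76 ± 0.44 CPM (-1.73 ± 0.29, edgeR adjusted p 7.2e-05). The median of the 7 was 0.74, against 0.006 over all genes tested.

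The cardiomyocyte markers moved with these genes at D8: 9 of 12 were called higher and 1, ACTN2, lower in the libraries labelled KO, and NPPA and MYH7 were not called. Of 7 surface ectoderm and amnion markers 7 were lower, with a summed level of 559 to 1095 CPM in the libraries labelled WT and 150 to 191 in those labelled KO, and none was at 0. Of 8 endoderm markers 7 were higher and 1 lower, at 167 to 246 against 329 to 483 CPM. Of 9 pluripotency markers 7 were lower and 1 higher, at 1435 to 1893 against 590 to 686 CPM. Of 8 skeletal muscle markers 5 were tested, with 1 higher and 2 lower and a summed level of 141 to 231 against 430 to 535 CPM, and 1 of the 8 was at 0 in WT and 2 in KO. That sum is nearly all CKM, at 184 and 487 CPM, while MYF6 and TNNT3 were the 2 called lower. Of 10 smooth muscle and fibroblast markers 5 were higher and 1 lower (1261 to 1491 against 2041 to 2316 CPM), and of 7 endothelial markers 4 were higher and 1 lower (315 to 377 against 649 to 713 CPM). The part of these other cell types in the differences of the 7 genes was not tested, and in bulk RNA fewer cells of a type and less RNA per cell cannot be told apart.

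Nuclear RNA of D8 gave the same directions in its own fit. All 7 genes were called there, against 64.0% of all genes tested, with 6 higher in the libraries labelled KO (31.2% of all genes were called higher) and CASQ2 lower. RYR2 read 1507, 1455 and 1755 CPM in the nuclear libraries labelled KO and 500, 308 and 333 in those labelled WT (2.05 ± 0.21 on the log2 scale, edgeR adjusted p 1.4e-09). PLN was higher by 1.81 ± 0.20, ATP2A2 by 1.58 ± 0.19, JPH2 by 1.57 ± 0.15, TRDN by 1.49 ± 0.14 and ASPH by 0.99 ± 0.15 (edgeR adjusted p 5e-09, 2.8e-08, 1.5e-10, 2.6e-10 and 1.2e-06). CASQ2 read 4.9, 2.45 and 3.53 CPM against 6.61, 6.29 and 6.59 (-0.87 ± 0.23, edgeR adjusted p 0.0024), again without overlap. The median of the 7 was 1.57, against -0.271 over all genes, and the summed cardiomyocyte markers were 62543 to 75216 CPM against 16890 to 22990, with 12 of 12 called higher. Markers of other cell types moved in nuclear RNA too: endoderm stood at 206 to 506 CPM in the libraries labelled KO against 28.3 to 34.1 (6 of 8 higher, 1 lower) and surface ectoderm and amnion at 205 to 447 against 558 to 936 (1 of 7 higher, 6 lower). The endothelial sum was 457 to 498 against 90.8 to 93.3 CPM, although 5 of its 7 markers were lower, and only KDR was higher, at a mean of 447 against 30.7 CPM. Their part in the nuclear differences was not tested. Nuclear WT replicates 2 and 3 differed by a chi-square of 1.22 per gene, little more than sampling noise, where the other replicate pairs gave 2.91 to 62.2. Without either of them all 7 genes remained called.

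**Figure D2:**
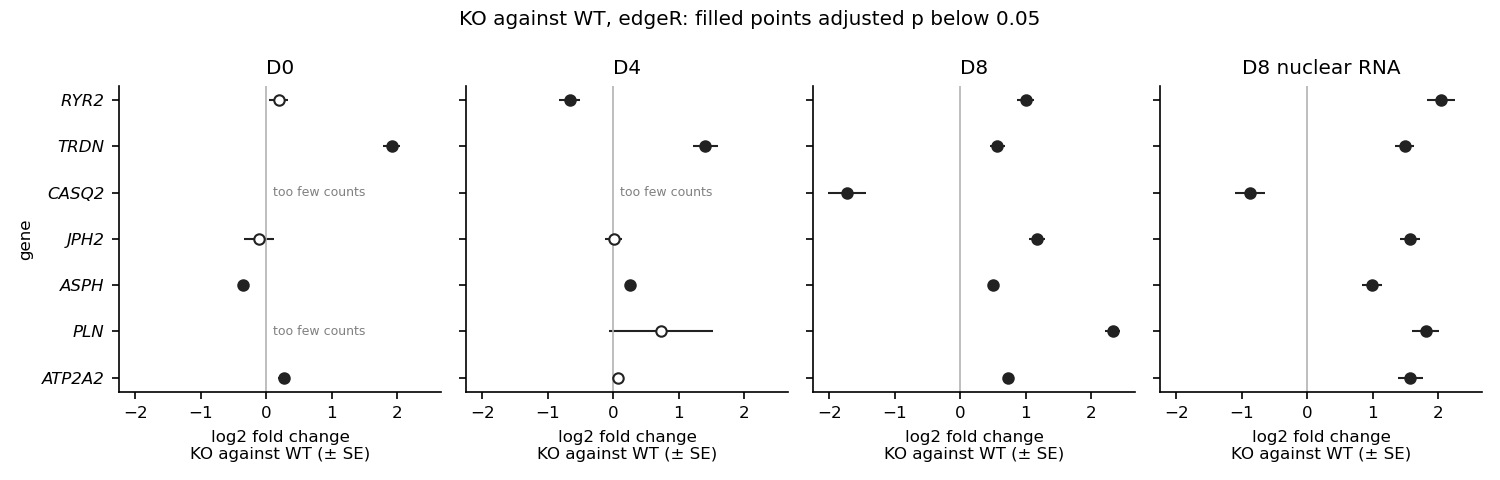
Log2 fold change of KO against WT with its standard error for each gene (rows) in 4 comparisons (panels); filled points had an edgeR adjusted p below 0.05, and genes with too few counts have no point. TRDN is called higher in all 4 panels, from 1.92 at D0 to 0.57 at D8, while CASQ2 is the only one of the 7 called lower at D8, at -1.73 in whole-cell and -0.87 in nuclear RNA.

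Whether the KO effect changed between days was tested as an interaction in the same edgeR fit. Between D0 and D4 it changed at 2 of 7 genes, where 39.1% of all genes were called: RYR2 moved by -0.85 ± 0.22 on the log2 scale and ASPH by 0.62 ± 0.12 (edgeR adjusted p 0.0038 and 0.00029). Between D4 and D8 it changed at 4 of 7, where 41.5% were called. RYR2 moved by 1.66 ± 0.20, JPH2 by 1.17 ± 0.18 and ATP2A2 by 0.66 ± 0.12 toward KO (edgeR adjusted p 1.7e-06, 2.3e-05 and 0.00026), and TRDN by -0.84 ± 0.23 away from it (edgeR adjusted p 0.006). RYR2 was thus lower in KO at D4 and higher in the libraries labelled KO at D8, while the TRDN excess shrank. These comparisons share the D4 libraries. A further change between D0 and D4, of TRDN (-0.51 ± 0.24, edgeR adjusted p 0.098), was called without D4 KO replicate 1 (0.049), and another between D4 and D8, of ASPH (0.25 ± 0.12, edgeR adjusted p 0.099), without D8 WT replicate 2 (0.0015).

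Of 32 other genes of sarcoplasmic or endoplasmic reticulum calcium handling, 30 were tested; they were called higher and lower in KO at 9 and 5 of 30 at D0, 7 and 6 at D4, 12 and 4 at D8, and 18 and 8 in nuclear RNA. Over all genes tested 42.3%, 28.4%, 55.6% and 64.0% were called in these comparisons, so the 14 and 16 calls at D0 and D8 are close to the background. Their median log2 fold changes were 0.06, 0.1, 0.22 and 0.44, where the described genes had 0.23 at D0 (6 genes, PLN at its bound), 0.08 at D4 and 0.74 at D8, and 1.57 in the nuclear libraries. The rankings that follow hold among called genes with a mean of at least 1 CPM over the groups compared. At D0 the skeletal calsequestrin CASQ1 (0.97 ± 0.13) and the luminal calcium binder CALR (0.63 ± 0.06) rose most in this set. The histidine-rich calcium-binding protein HRC (-1.19 ± 0.14) and the skeletal pump ATP2A1 (-1.10 ± 0.19) fell most (edgeR adjusted p of the 4 genes 7.2e-06, 1.4e-07, 7.5e-07 and 6.5e-05). At D4 the counter-ion channel TMEM38B (1.01 ± 0.09) and CASQ1 (0.82 ± 0.15) led the rises, and the junctophilin JPH4 (-0.86 ± 0.14) and the skeletal channel RYR1 (-0.53 ± 0.16) the falls. At D8 TMEM38A, a paralog of TMEM38B, was 1.43 ± 0.10 higher and the phosphatase inhibitor PPP1R1A 1.39 ± 0.11 higher in the libraries labelled KO, and the inositol trisphosphate receptor ITPR2 (-1.24 ± 0.11) and JPH3 (-0.24 ± 0.09) were lower. In nuclear RNA HRC (1.96 ± 0.15) and JPH1 (1.69 ± 0.14) were highest, and JPH4 (-1.20 ± 0.25) and CALR (-1 ± 0.23) lowest.

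Across the 18 whole-cell libraries the log2 CPM of PLN, with a small constant added to each CPM, followed that of ATP2A2 (Pearson r 0.97) and RYR2 (0.99). TRDN followed JPH2 least (0.35). These values share libraries, days and depth and are descriptions. At D0 and D4 PLN was at 0 to 0.206 CPM and CASQ2 at 0 to 0.075 CPM, so there the constant largely sets their log2 values. Among 10551 genes with a mean of at least 10 CPM, the patterns most like RYR2 were those of ITGB1BP2 and ASB2 (r 0.994 and 0.993), most like PLN those of VCAM1 and RRAD (0.999 and 0.998), and most like JPH2 those of NAV1 and LTBP1 (0.997 and 0.996). ATP2A2 was closest to PDE4DIP and CAND2 (0.991 and 0.985), ASPH to TSPAN2 and SEPT5 (both 0.988), and TRDN to KDM6A and FBLIM1 (0.978 and 0.977). CASQ2, compared with 10552 genes, was closest to TACC1 and EFNB2 (both 0.976).

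Exon use was taken from the authors' deposited tables, which give, for each skipped exon, reads over its inclusion and skipping junctions and an inclusion level from 0 to 1 in 3 libraries of a first and 3 of a second arm. The tables do not name the arms. In the D0 table QKI junction reads of the second arm were 4.18% to 8.24% of those of the first arm, scaled to all junction reads, at D4 17.1% to 55.1% and in 293xT cells 15.6% to 24.4%. At D8 they were 13.6% to 186%, with a median of 93.2% over 12 events. An event was called where the authors' false discovery rate (FDR) was below 0.05, the inclusion level differed by at least 0.1 and the junction reads averaged 10 or more per library in both arms.

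In the authors' deposited D8 table, 9 of 67 member events with enough reads were called, against 2.23% of all such events. RYR2 had 3, TRDN 4, ATP2A2 1 and ASPH 1, and 7 of the 9 were less included in the second arm. Over all events with enough reads in that table, 1.02% were called lower and 1.21% higher in the second arm. In the authors' deposited tables for D0, D4 and 293xT none of 37, 19 and 15 member events was called, against 2.37%, 1.1% and 0.451% of all events. With limma on the logit of the inclusion level 0 member events were called in each of these 3 tables. Over all events limma called only 230 of 89761, 93 of 68141 and 64 of 56507, so its 0 for so few member events says little. At the authors' FDR alone, 4 member events were below 0.05 at D0, 1 at D4 and 1 in 293xT cells. The share of all events under this looser rule was not counted, so these counts cannot be set against a background.

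The RYR2 exon of 36 bases, exon 75 of 105 in transcript RYR2-202 (chr1:237889573-237889608, hg19, plus strand, coding), switched almost completely. Its inclusion levels in the authors' deposited D8 table were 1.0, 0.983 and 1.0 in the first arm and 0.0, 0.0 and 0.005 in the second (FDR printed as 0). Behind these levels the authors' deposited table has 550 inclusion and 2 skipping reads in the first arm, and 1 inclusion and 438 skipping reads in the second. In the authors' deposited D0 table the levels were 0.913, 0.763 and 0.763 against 0.212, 0.0 and 0.0 (FDR 1.43e-10), on means of 9.67 and 8.33 reads, just under the read minimum. In the authors' deposited D4 table the 15 reads of the first arm all included the exon and the 7 of the second all skipped it (FDR 1), and the 293xT table held 3 reads. Leaving out the exon removes 12 codons and keeps the frame, as the pair of RYR2 sequences above shows.

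A second RYR2 exon, of 24 bases (chr1:237906900-237906923, hg19, plus strand), matched no exon of GENCODE 29 by its length and introns, so no sequence is shown. Its inclusion in the authors' deposited D8 table was 0.384, 0.427 and 0.347 in the first arm and 0.147, 0.202 and 0.132 in the second (FDR 2.51e-10), a call that limma did not make (limma adjusted p 0.115). The third, RYR2 exon 61 of 65 bases (chr1:237841348-237841412), went the other way when measured against a more distant downstream exon: 0.878, 0.732 and 0.799 against 0.928, 0.919 and 0.955 in the authors' deposited table (FDR 0.0122), and limma did not call it (limma adjusted p 0.47). The event that joins the same exon to its next neighbour has more reads and was at 0.989 and 1.0 in the authors' deposited table (FDR 1). RYR2 exon 63 of 50 bases lay just outside the threshold, with mean levels of 0.888 and 0.987 in the authors' deposited table (FDR 2.14e-06).

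TRDN lies on the minus strand of chromosome 6, and 4 of its exons, all coding and all a multiple of 3 bases long in transcript TRDN-201, were less included in the second arm at D8. Exon 31 of 18 bases (chr6:123590994-123591011, hg19) was at 0.295, 0.397 and 0.381 against 0.07, 0.023 and 0.073 in the authors' deposited table (FDR printed as 0). Exon 9 of 60 bases (chr6:123818338-123818397) was at 0.497, 0.544 and 0.548 against 0.302, 0.31 and 0.272 in the authors' deposited table (FDR 3.57e-08). The other two are mostly included exons: in the authors' deposited table exon 14 of 30 bases (chr6:123709667-123709696) was at mean levels of 0.958 and 0.828 (FDR 9.42e-05) and exon 36 of 36 bases (chr6:123577012-123577047) at 0.911 and 0.806 (FDR 0.000782). The 2 arms did not overlap at any of these 4 exons, which were picked for their difference in these same libraries, so this adds no support. With limma on the logit of the inclusion level only exon 9 was still called (limma adjusted p 0.0285), and exons 31, 14 and 36 were not (limma adjusted p 0.171, 0.287 and 0.234). Exon 19 of 27 bases, at 0.348 and 0.26 in the authors' deposited table, was not called (FDR 0.625).

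**Figure D3:**
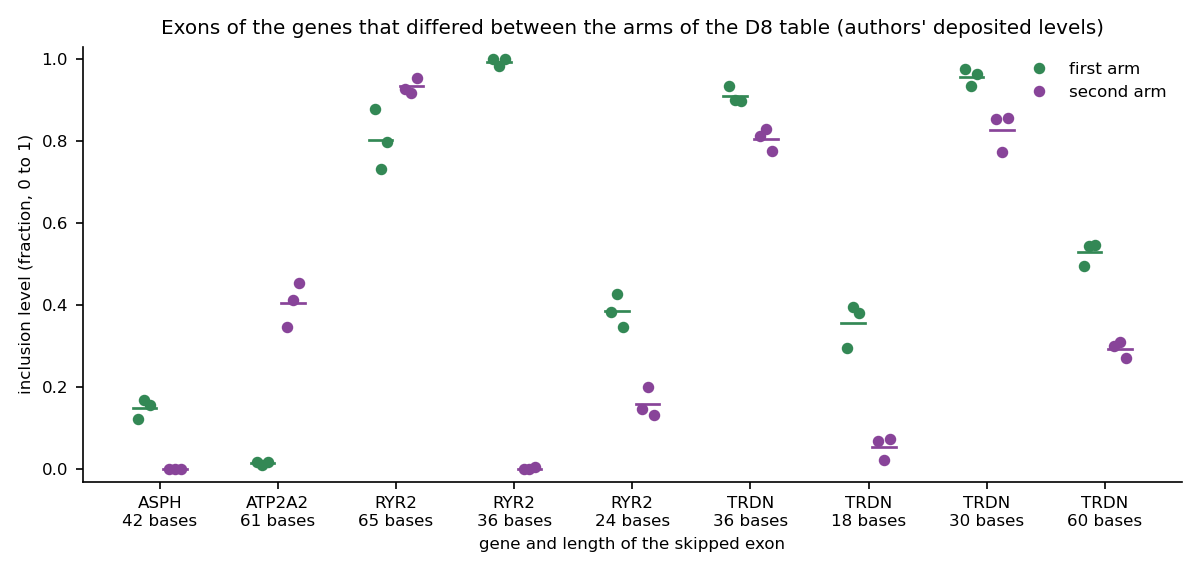
Inclusion level per library (points) and mean (line) in the first and second arm of the authors' deposited D8 table, for the 9 called exons of the 7 genes. The RYR2 exon of 36 bases goes from a mean of 0.994 to 0.00167, and 7 of the 9 exons are lower in the second arm. Over all events with enough reads, 1.02% were called lower and 1.21% higher in that arm.

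ATP2A2 showed a different change, at its 3′ end. In the authors' deposited D8 table the 61-base exon (chr12:110785198-110785258, hg19, plus strand) was included at 0.019, 0.011 and 0.019 in the first arm and at 0.348, 0.412 and 0.455 in the second (FDR printed as 0). The reads that join the exons on either side of it directly, into the last exon of ATP2A2-201 (the splice of the muscle form SERCA2a, whereas the general form SERCA2b reads on into the intron), numbered 2277, 2355 and 1774 in the first arm and 371, 449 and 278 in the second in the authors' deposited table. Reads over the junctions of the 118-base exon upstream were no fewer in the second arm: the authors' deposited table has 7824, 7633 and 6408 in the first arm and 8033, 9958 and 7842 in the second.

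The direct splice was therefore expressed per read over 1 junction of that upstream exon, a measure chosen after its values were seen. From the authors' deposited D8 table it came to 58.2%, 61.7% and 55.4% in the first arm and 9.24%, 9.02% and 7.09% in the second. With reads joined through the 61-base exon counted as well, the second arm rose to 13.2%, 14.1% and 11.9%. At D0 the authors' deposited table gave 1.79%, 2.66% and 1.22% against 0.393%, 0.565% and 0.366%, on 19, 24 and 13 against 5, 7 and 5 direct reads. At D4 it gave 2.43%, 3.32% and 2.58% against 0.308%, 0.324% and 0.792%. The first arm was above the second without overlap on all 3 days, by 4.28-fold, 5.85-fold and 6.92-fold between the means, and the two-sided exact permutation p was 0.1 each time, the smallest that 3 against 3 libraries allow. In the 293xT table the direct reads were 0 to 5 per library and the arms overlapped (exact permutation p 0.7). The direct splice was thus rare at D0 and D4 in both arms, and at D8 it was lower in every library of the second arm than in any of the first.

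**Figure D4:**
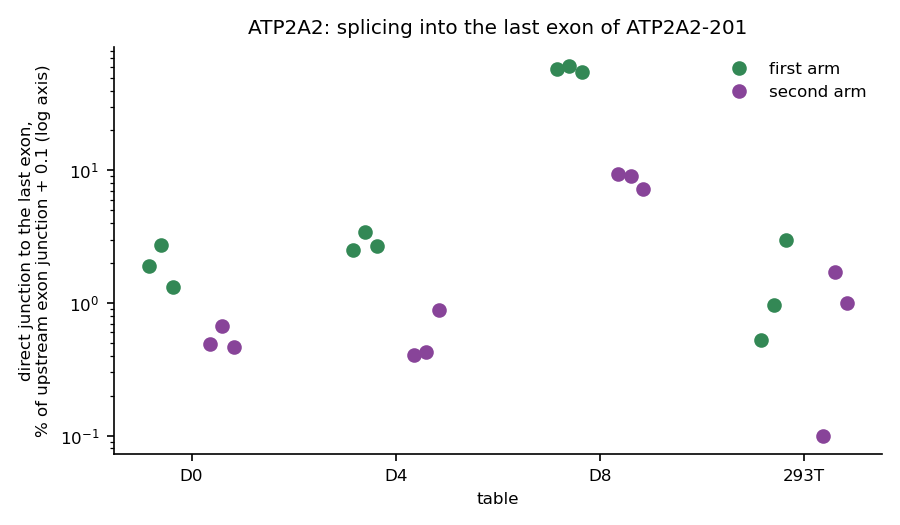
Reads joining ATP2A2 directly into the last exon of ATP2A2-201, as a percent of the reads over 1 junction of the upstream 118-base exon, plus 0.1, on a log axis, with a point per library of the authors' deposited tables. At D8 the first arm lies at 55.4% to 61.7% and the second at 7.09% to 9.24%, and in 293xT cells the arms overlap.

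ASPH had the most events in the D0, D4 and 293xT tables. Its called event at D8 is a 42-base exon (chr8:62580793-62580834, hg19, minus strand) at 0.123, 0.168 and 0.158 against 0.0, 0.0 and 0.0 in the authors' deposited table (FDR 0.000327), on means of 24.3 and 13 reads. The event of the same exon with the most reads, which uses another neighbouring exon, was at 0.00333 and 0.0 in the authors' deposited table (FDR 1). A 45-base exon (chr8:62594998-62595042) lay just under the 0.1 difference at D8, at 0.154, 0.138 and 0.144 against 0.043, 0.052 and 0.054 in the authors' deposited table (FDR printed as 0). At D0 its mean levels in the authors' deposited table were 0.009 and 0.023 (FDR 0.0072) and in 293xT cells 0.016 and 0.0733 (FDR 0.0225), the opposite direction. JPH2 had 2 events at D4 and 3 at D8, each with an FDR of 1 in the authors' deposited tables.

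The junction reads also show where along TRDN the spliced reads lay at D0. In the authors' deposited D0 table the events at exons 5, 6 and 7 of 41 held 283 to 322 reads in the 3 libraries of the first arm together and 1530 to 1689 in those of the second. The events at exons 9 and 36 held 5 and 7 reads in the first arm and 14 and 16 in the second, in the authors' deposited D0 table. At D8 the reads ran along the gene: the authors' deposited table has 502 and 697 at exon 5, and 274 to 776 in the first arm and 256 to 668 in the second over 9 events from exon 9 to exon 40. The TRDN difference between genotypes at D0 was thus measured on a gene whose listed junction reads lay almost wholly at its 5′ exons. An antisense gene is annotated over TRDN, and the strand setting of the gene counts is not stated in the labels or file headers, so reads of the 2 strands cannot be told apart in the gene counts.

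**Figure D5:**
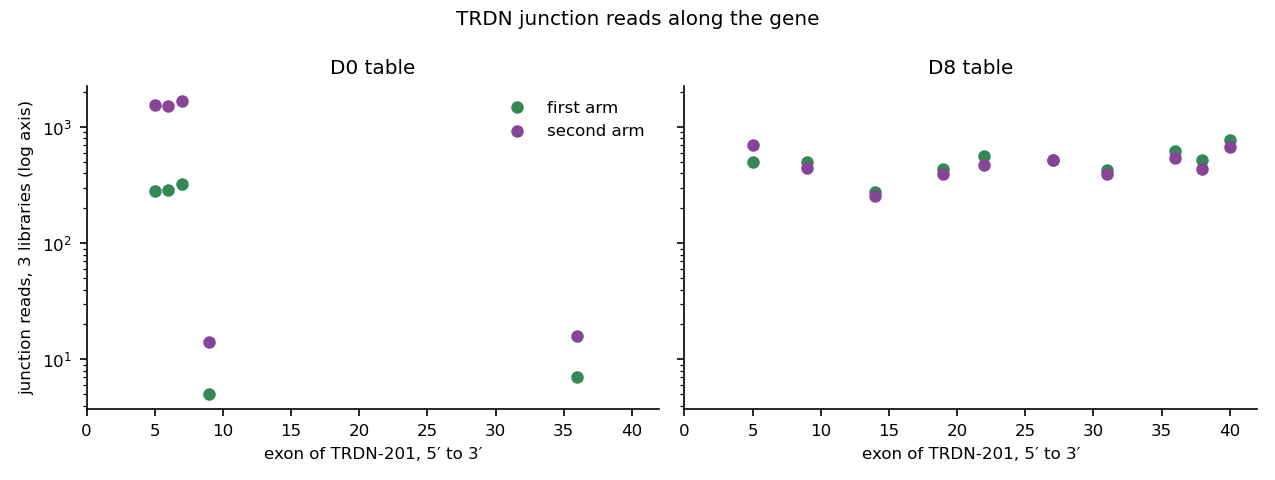
Junction reads summed over 3 libraries per arm (log axis) for skipped-exon events matched to exons of TRDN-201, against exon number from 5′ to 3′, in the authors' deposited D0 and D8 tables. At D0 exons 5 to 7 hold 283 to 1689 reads and exons 9 and 36 hold 5 to 16, while at D8 all events hold 256 to 776.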

How the data were processed

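Raw read counts per gene were deposited by the authors for 18 whole-cell and 6 nuclear libraries, and the submitters' processing notes name UMI-tools, cutadapt, STAR, featureCounts and DESeq with build hg19. Skipped-exon tables (rMATS columns, per the file headers) hold the authors' junction read counts, inclusion levels (a fraction), the difference of inclusion levels as a signed score, first minus second arm (reversed here), and p-values with FDR; versions and the strand setting were not given in the sources used. Libraries were taken to keep their order within a table.

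Counts were filtered with filterByExpr, TMM-scaled and tested with edgeR 4.0.16 (quasi-likelihood, R 4.3.3), 1 mean per group and whole-cell and nuclear tables apart; scripts were tested on simulated data. DESeq2 1.42.0 and limma 3.58.1 (logit levels bounded at 0.01 and 0.99) served as alternatives. Groups came from the labels. The genes and lists were chosen with earlier results of these data known. Named besides the 7 genes and QKI: the 2 largest called rises and falls of other calcium genes (mean at least 1 CPM) and the 2 most alike patterns. Intervals and floors of 3 counts cover counting error only. Intron sequence and proteins were not used here.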

Additional observations from a re-analysis of the deposited data

Results flagged for a closer look

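The KO effect, as a log2 fold change of KO against WT, differed between days by a test of the difference itself (edgeR interaction, Benjamini-Hochberg adjusted) for RYR2 and ASPH between D0 and D4, and for RYR2, JPH2, ATP2A2 and TRDN between D4 and D8. From D0 to D4 it moved by -0.85 for RYR2 (adjusted p 0.0038) and by 0.62 for ASPH (adjusted p 0.00029). From D4 to D8 it moved by 1.66 for RYR2 (adjusted p 1.7e-06), 1.17 for JPH2 (adjusted p 2.3e-05), 0.66 for ATP2A2 (adjusted p 0.00026) and -0.84 for TRDN (adjusted p 0.006). The CHIR dose also differed between WT and KO after D0 and cannot be told apart from the genotype in these differences. Groups of 3 libraries were too small for a search for outlying libraries.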

How the results depend on the processing

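All 7 genes kept their direction and call at D8 and in nuclear RNA under every alternative of the gene counts. In all, 794 of 837 values of single genes, exons or ratios kept direction and side of the threshold; the cause of the changes was not tested. Values near 0 changed sign at D4 for JPH2 (-0.02 with DESeq2 size factors and with DESeq2, and -0.03, -0.07 and -0.06 without D4 WT replicate 1, D4 WT replicate 2 and D4 KO replicate 1, in a range of -0.07 to 0.14 over left-out libraries) and PLN (-0.15 without D4 KO replicate 1, range -0.15 to 1.20), and from D0 to D4 in KO for ASPH (0.19 with total counts, 0.00 without D0 KO replicate 1, range -0.05 to 0.00) and ATP2A2 (0.15 with total counts). RYR2 in WT gained a call from D0 to D4 with total counts and with no filter on low counts (adjusted p 0.011 and 0.0022), ATP2A2 with total counts (0.012). With total counts the reversed ASPH value in KO was also called from D0 to D4 (edgeR adjusted p 0.036), which the main fit did not call. PLN in KO lost its call from D0 to D4 with DESeq2 size factors (adjusted p 0.055) and without D0 KO replicate 1 or 3 or D4 KO replicate 1 or 3 (adjusted p 0.065 to 0.33). The TRDN change of the KO effect between D0 and D4 was called with no filter, with DESeq2 and with only the compared libraries (adjusted p 0.0075, 0.044 and 0.019), and that of PLN between D4 and D8 with no filter and with DESeq2 (0.045 and 0.019). Total counts in place of TMM moved the share of all called genes that were higher from 57.6% to 73.8% at D4, from 52.9% to 37.6% at D8 and from 48.7% to 25.6% in nuclear RNA, where the median of all genes went from -0.27 to -0.72.

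Member events called in the D8 table went from 9 to 5 at a difference of at least 0.2 and to 4 with limma on the logit of the inclusion level (RYR2 36-base, TRDN 60-base, ATP2A2 61-base and ASPH 42-base exons), with 2 to 4 when a library was left out of limma. Over all events at D8 limma called 414 of 89906. The ASPH 42-base exon lost its call at a minimum of 20 junction reads. Its second-arm levels were all 0.0 and were bounded at 0.01 for limma, so that arm had no spread. The RYR2 65-base exon lost its call at an authors' FDR under 0.01. Leaving out the read minimum gave 1 event at D0, and a difference of at least 0.05 gave 1 at D4 and 1 in 293xT cells. Replicate numbers did not pair the samples (correlations of same-numbered libraries -0.4 to 0.48), and the replicate block changed no call of the 7 genes: 3, 3, 7 and 7 were called at D0, D4, D8 and in nuclear RNA. Shallow junction coverage limits exon use of RYR2 and TRDN at D0 and D4.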
